A study of Mus musculus with 9 samples.

Results

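Cholesterol is one of the main lipids of the stratum corneum, beside ceramides and free fatty acids, and the epidermis makes most of its own. A set of 31 genes for its synthesis, uptake and sulfation was followed in newborn mouse epidermis. Members were taken by gene symbol, where a probe set of the array names that gene alone, and the brightest probe set stood for each gene. Of the 31 genes, 28 were measured, out of 18193 genes on the array. Acat2, which makes acetoacetyl-CoA, Soat1, which esterifies cholesterol, and Nr1h2, an oxysterol receptor gene, had no such probe set and were not analysed here.

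The samples were trunk epidermis of newborn mice labelled Alox12b-KO, which lack a lipoxygenase of the acylceramide pathway, and of wildtype mice of strain 129S6. The labels describe all pups as born to heterozygous parents and killed at birth, and the epidermis was peeled away by hand once the skin had been dipped in hot saline. RNA from each of 4 knockout and 5 wildtype samples, called biological replicates in the labels, was hybridised to an Affymetrix Mouse Genome U430 2.0 array, and all levels below are log2 values as deposited. The strain of the knockouts and the deleted part of the gene are unstated in the labels.

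The array itself gives no sign of the deletion. Alox12b read 10.84 to 11.60 on the knockout arrays and 10.56 to 11.32 on the wildtype arrays, and what its probe set covers relative to the deletion was not used here. Epidermal identity was clear in both groups, with Krt1 at 13.99 or above and Krt10 at 14.05 or above on all 9 arrays. Sex was nearly aligned with genotype. Xist, the RNA of the inactive X chromosome, read 9.99 to 10.20 on the knockout arrays and 10.95 on wildtype array 4. It read 3.23 to 4.32 on wildtype arrays 1, 2, 3 and 5. But for wildtype array 4, genotype and sex went together, so their parts in the differences below cannot be told apart. Among the members, Ebp and Nsdhl lie on the X chromosome. Knockout array 4 had the highest fibroblast markers, with a mean of 9.32 over 7 genes against 5.61 to 7.86 on the other arrays, and wildtype array 3 the highest adipocyte markers.

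Cholesterol synthesis runs from acetyl units through mevalonate and the isoprenoids to squalene, and from squalene through lanosterol to cholesterol. The transcription factor SREBP-2, the product of Srebf2, switches on the genes of the whole route when sterols are scarce. Its precursor is carried out of the endoplasmic reticulum by Scap and held back there by the Insig proteins. When sterols are plentiful, the oxysterol receptors LXR (Nr1h2 and Nr1h3) raise the efflux pumps Abca1 and Abcg1 and Mylip, a ubiquitin ligase that removes lipoprotein receptors. In the upper epidermis Sult2b1 turns part of the cholesterol into cholesterol sulfate, which takes part in cornification and desquamation.

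No member passed an adjusted p of 0.05 in limma, the linear model fitted across all genes with Benjamini-Hochberg adjustment, which called 1.24% of all genes. At an unadjusted p under 0.05 there were 6 of the 28 members, 3 higher and 3 lower in knockout, beside 17.8% of all genes. The higher ones were Sult2b1, Nr1h3 and Pmvk and the lower ones Abca1, Scap and Mylip. In 3 members, Abca1, Scap and Mylip, every knockout array read below every wildtype array, a pattern that 5.14% of all genes showed, and in 0 members every knockout array read above, beside 3.14% of all genes. Of the 28 differences 20 were positive and 8 negative, with a median of 0.20 where all genes had 0.02. In whole tissue, fewer cells of a type and less RNA per cell cannot be told apart.

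**Figure D1:**
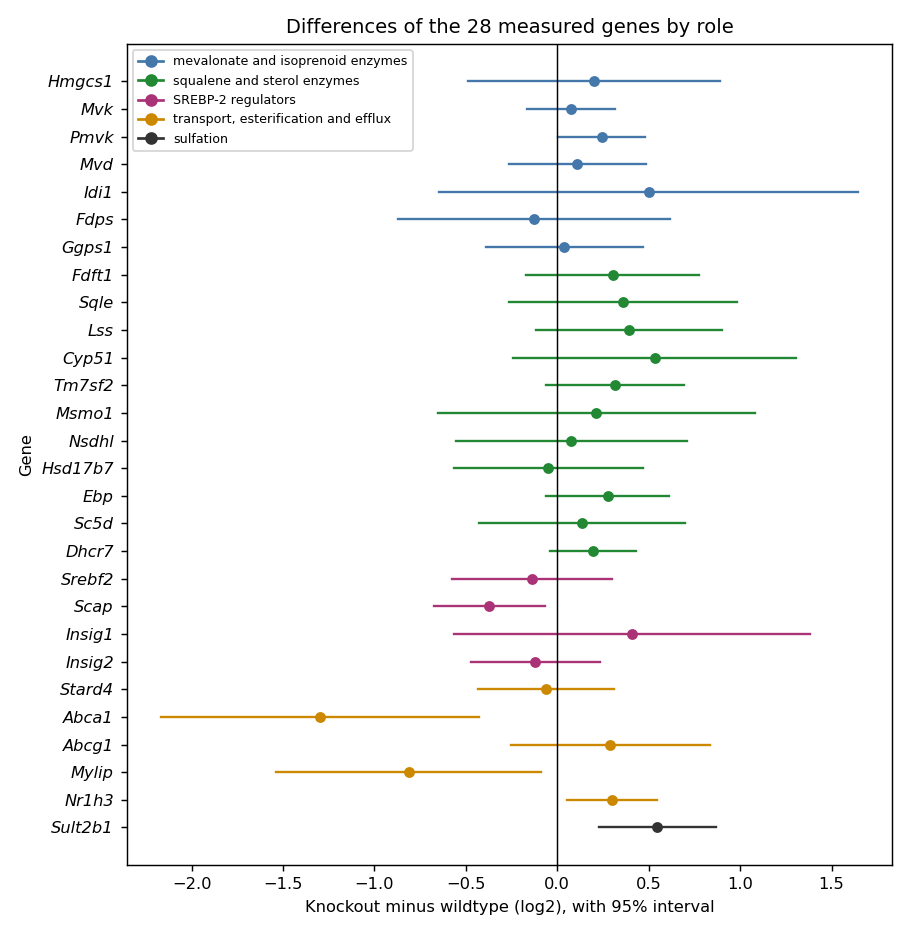
Knockout minus wildtype difference in log2 level (x axis) of the 28 measured genes (y axis), coloured by role, with 95% intervals from limma before adjustment for multiple testing. Most enzymes lie to the right of 0 with intervals that include it, and Abca1 lies farthest to the left at -1.30.

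The enzymes leaned toward higher values in knockout, but by less than the arrays of a group differed among themselves. Of the 18 measured enzymes of synthesis, 16 had a positive difference, with a median of 0.21 on the log2 scale. The same sign was found in 53.5% of all genes. Averaged over the 18, knockout arrays had 8.25 ± 0.41 (SD, n = 4) and wildtype arrays 8.04 ± 0.34 (SD, n = 5), which are 0.21 apart. The lowest adjusted p among the 18 was 0.272 in limma, for Pmvk, and the highest 0.932, for Ggps1. Leaving out knockout array 2 took the median of the 18 differences to 0.08, leaving out knockout array 1 to 0.12 and leaving out wildtype array 4 to 0.11. The median went up to 0.30 on dropping knockout array 4, to 0.28 on dropping knockout array 3, to 0.29 on dropping wildtype array 3 and to 0.33 with array weights. With the Xist level as a covariate the median was 0.50, and wildtype array 4 is the 1 wildtype array with Xist near the knockout level.

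Among the enzymes of the mevalonate and isoprenoid steps, 6 of 7 had a positive difference and the median was 0.11. Hmgcs1, which condenses acetoacetyl-CoA with another acetyl unit, read 11.10 ± 0.76 (SD, n = 4) in knockout and 10.89 ± 0.33 (SD, n = 5) in wildtype. Its 4 other probe sets all had the opposite sign, between -0.43 and -0.13, so even the direction of this gene was not settled. The kinases Mvk and Pmvk and the decarboxylase Mvd, which act on mevalonate in turn, differed by 0.07, 0.24 and 0.11. The other probe set of Mvk had the opposite sign, at 5.81 against 6.13, so the direction of Mvk was not settled either. Idi1, the isopentenyl diphosphate isomerase, read 9.43, 9.88, 7.39 and 7.97 on knockout arrays 1 to 4 and 8.32, 8.23, 9.14, 7.11 and 8.05 on wildtype arrays 1 to 5. Its highest and lowest arrays differed 6.83-fold and the groups overlapped, with a difference of 0.50 ± 0.52 (SE) and an adjusted p of 0.633 in limma. With single arrays left out the difference of Idi1 ran from 0.096 without knockout array 2 to 0.92 without knockout array 3, with 0.25 when knockout array 1 was dropped and 0.23 when wildtype array 4 was. Fdps, which makes farnesyl diphosphate, differed by -0.13, and Ggps1, which makes geranylgeranyl diphosphate for protein prenylation, by 0.04.

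From squalene onward, 10 of 11 enzymes had a positive difference and the median was 0.28. Fdft1, the squalene synthase, differed by 0.30 and Sqle, the squalene epoxidase and a rate-limiting step, by 0.36. Lss, which closes the rings to give lanosterol, read 8.12, 8.14, 7.18 and 7.45 on the knockout arrays and 7.40, 7.44, 7.70, 6.87 and 7.25 on the wildtype arrays. Its difference was 0.39 ± 0.23 (SE), with an adjusted p of 0.394 in limma. This Lss probe set is of a less specific kind, and the specific probe set taken in its place read 6.89 against 6.87, a difference of 0.019 with an adjusted p of 0.988 in limma. Cyp51, the lanosterol demethylase, had the largest positive difference of any enzyme. It read 8.42, 8.59, 7.15 and 7.30 on the knockout arrays and 7.48, 7.34, 8.08, 6.64 and 7.13 on the wildtype arrays. Knockout arrays 1 and 2 stood above all wildtype arrays, while knockout arrays 3 and 4 fell within their range, and the difference of 0.53 ± 0.35 (SE) had an adjusted p of 0.450 in limma. It was 0.29 without knockout array 2, 0.35 without knockout array 1 and 0.77 without knockout array 3.

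The remaining sterol enzymes differed by between -0.05 and 0.31. Tm7sf2, a sterol reductase, differed by 0.31, Msmo1, the methylsterol monooxygenase, by 0.21, Nsdhl, a sterol dehydrogenase, by 0.08 and Hsd17b7, which reduces the keto group left by that step, by -0.05. Ebp, the sterol isomerase, differed by 0.28, Sc5d, a sterol desaturase, by 0.13 and Dhcr7, the reductase that yields cholesterol itself, by 0.20. The other probe sets of Sc5d had the opposite sign, at 5.45 against 6.11 and 3.04 against 3.33, so its direction was not settled. The adjusted p of these 7 genes in limma lay between 0.361 and 0.931.

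With array weights, which let limma count arrays of low fit less, Sult2b1, Pmvk, Lss and Cyp51 passed, at adjusted p values of 0.00545, 0.0408, 0.0291 and 0.0315, and 1644 of all genes passed with them. Knockout arrays 3 and 4 then had weights of 0.323 and 0.314 against 1.42 and 3.37 for knockout arrays 1 and 2. Wildtype array 5 had a weight of 0.359 against 1.06 to 2.50 for the other wildtype arrays.

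Most enzymes varied together from array to array, within both groups. Whether this lies in the animals or in the handling of the samples and arrays was not tested. The mean of the 18 enzymes was 8.57 and 8.63 on knockout arrays 1 and 2, and 7.86 and 7.94 on knockout arrays 3 and 4. In wildtype it was highest on array 3, at 8.49, lowest on array 4, at 7.57, and 8.17, 8.05 and 7.93 on arrays 1, 2 and 5. Highest and lowest array thus differed 2.09-fold, with a knockout array at the top and a wildtype array at the bottom, and the ranges of the groups overlapped. Between knockout array 2 and knockout array 3, the lowest, 14 of 18 enzymes read higher on the former, with a median of 0.80, and 15 of 18 read higher on knockout array 1 than on array 3, with a median of 0.74. All 18 read higher on knockout array 2 than on knockout array 4, with a median of 0.74, and all 18 read higher on wildtype array 3 than on wildtype array 4, with a median of 0.87. Over all genes the medians for these 4 pairs of arrays lay between -0.04 and 0.01.

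After each gene's group means were removed, the mean correlation between pairs of the 18 enzymes was 0.65 over 9 arrays, beside 0.003 over pairs of all genes. No test was made of these correlations, and the part of hybridisation and normalization in them was not tested. Each enzyme was also set against the mean of the others. Pearson's r was 0.98 for Cyp51, 0.97 for Idi1, 0.95 for Lss, 0.95 for Fdft1, 0.94 for Nsdhl, 0.94 for Msmo1 and 0.92 for both Sqle and Hmgcs1, and 11 of the 18 reached 0.8. Without the pair of arrays farthest from the median of that mean, r was 0.99 for Cyp51 and 0.96 for Idi1.

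**Figure D2:**
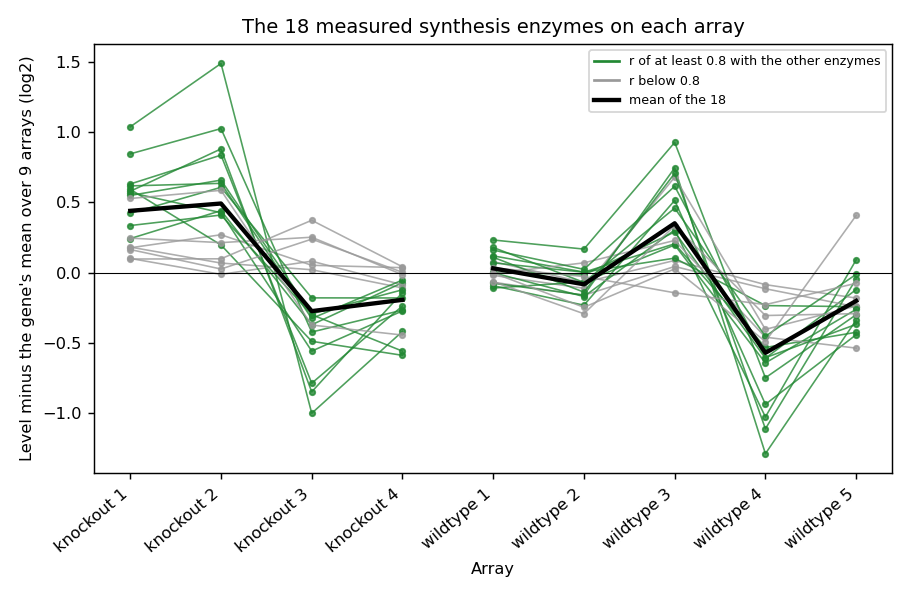
Level of each of the 18 measured synthesis enzymes minus its own mean over 9 arrays (y axis, log2) on each array (x axis). Thin lines join the values of 1 gene within a group and the thick line is the mean of the 18, which is highest on knockout arrays 1 and 2 and lowest on wildtype array 4.

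A few enzymes of the same route stayed steady. The SD between arrays of a group was 0.11 for Dhcr7, 0.11 for Pmvk and 0.12 for Mvk, where all genes had a median of 0.24 and the 18 enzymes a median of 0.40. Dhcr7 ran from 9.45 to 9.92 over all 9 arrays and had an r of 0.26 with the other enzymes, and Ebp had 0.44. Mvk and Pmvk varied little but followed the other enzymes more, with r of 0.74 and 0.69. Idi1 lay at the other end, with an SD of 0.95, larger than in 99.2% of all genes, followed by Msmo1 at 0.71 and Cyp51 at 0.63. The steps between lanosterol and cholesterol thus included both an enzyme that varied with the rest, Nsdhl, and one that hardly varied, Dhcr7.

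**Figure D3:**
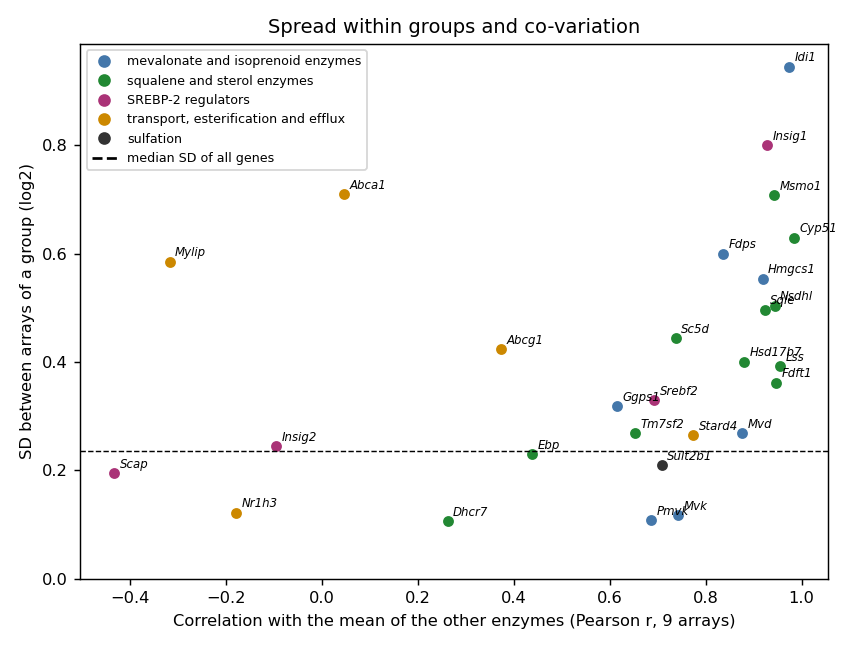
SD between arrays of a group (y axis, log2) against the Pearson correlation of each gene with the mean of the other synthesis enzymes over 9 arrays (x axis), for the 28 measured genes coloured by role. Idi1 and Insig1 lie at the top right, and Dhcr7 lies below the dashed line that marks the median SD of all genes, 0.24.

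The promoter windows of these genes were compared in sequence with those of all genes. RefSeq (GRCm38.p6) gave windows of 300 bases, from 250 before to 50 after the start of transcription, for 15 of the 18 enzymes and 23 of the 28 members. They were searched on both strands for the core of the sterol regulatory element (TCACNCCAC), the box of the SREBP partner NF-Y (CCAAT), the Sp1 box (GGGCGG) and the E-box (CACGTG). An NF-Y box stood in all 15 enzyme windows, where 41.1% of the 27025 genes in that table had one. An Sp1 box stood in 13 of 15, beside 38.2%, and an E-box in 3 of 15, beside 8.09%. Among all 23 members with a window, 19 had an NF-Y box, 19 an Sp1 box and 6 an E-box, so the Sp1 box and E-box were not particular to the enzymes. The sterol regulatory element core was found in 1 enzyme, Hmgcs1, beside 1.44% of all genes, and SREBP also binds many sequences that this core does not match. Genes with several windows count as having a motif if any window has it.

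The windows of Hmgcs1, which holds the element core, of Idi1 and Cyp51, the enzymes that followed the others most closely, of Insig1, the regulator that moved with them, and of Mvk, a steady enzyme, are shown for comparison, each from 5′ to 3′ on the gene's own strand. Capitals mark the 4 motifs, on either strand. The windows lie at chr13:119690101-119690400 (plus strand), chr13:8885356-8885655 (plus), chr5:4104648-4104947 (minus), chr5:28071162-28071461 (plus) and chr5:114444019-114444318 (plus).
Hmgcs1: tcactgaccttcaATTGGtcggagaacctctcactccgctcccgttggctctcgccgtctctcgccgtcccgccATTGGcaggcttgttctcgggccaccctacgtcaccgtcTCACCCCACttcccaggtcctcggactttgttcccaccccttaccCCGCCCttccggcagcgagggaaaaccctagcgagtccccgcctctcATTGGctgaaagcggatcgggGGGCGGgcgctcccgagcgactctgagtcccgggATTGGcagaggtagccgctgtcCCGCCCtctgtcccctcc
Idi1: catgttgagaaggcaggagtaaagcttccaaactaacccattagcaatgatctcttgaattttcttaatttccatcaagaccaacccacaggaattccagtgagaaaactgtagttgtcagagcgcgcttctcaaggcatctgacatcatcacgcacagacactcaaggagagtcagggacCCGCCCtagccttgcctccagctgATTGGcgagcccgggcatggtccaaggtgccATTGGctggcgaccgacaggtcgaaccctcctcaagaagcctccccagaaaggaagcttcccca
Cyp51: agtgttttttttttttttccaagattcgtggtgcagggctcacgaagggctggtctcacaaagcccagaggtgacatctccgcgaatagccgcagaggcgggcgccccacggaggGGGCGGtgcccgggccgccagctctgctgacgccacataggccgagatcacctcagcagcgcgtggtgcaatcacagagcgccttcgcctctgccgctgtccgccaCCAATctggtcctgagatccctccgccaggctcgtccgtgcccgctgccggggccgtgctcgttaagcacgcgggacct
Insig1: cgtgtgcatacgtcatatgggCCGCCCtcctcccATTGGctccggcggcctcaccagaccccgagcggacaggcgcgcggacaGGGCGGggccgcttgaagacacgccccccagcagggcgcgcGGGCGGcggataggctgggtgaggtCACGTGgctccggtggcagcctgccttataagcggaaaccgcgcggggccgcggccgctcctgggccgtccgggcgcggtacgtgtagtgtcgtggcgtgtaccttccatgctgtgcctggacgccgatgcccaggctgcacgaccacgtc
Mvk: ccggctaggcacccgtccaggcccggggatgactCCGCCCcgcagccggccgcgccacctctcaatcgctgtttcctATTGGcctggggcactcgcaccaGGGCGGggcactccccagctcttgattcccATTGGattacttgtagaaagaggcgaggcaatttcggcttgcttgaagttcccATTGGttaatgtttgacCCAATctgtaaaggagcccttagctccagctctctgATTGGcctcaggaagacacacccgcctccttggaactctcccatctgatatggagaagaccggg
These windows hold 4 NF-Y boxes in Hmgcs1, 2 in Idi1, 1 in Cyp51, 1 in Insig1 and 5 in Mvk. A match describes letters in this window and not a bound site.

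Of Srebf2 and its 3 regulators, Insig1 had the highest correlation with the enzymes. Insig1, itself a target gene of SREBP-2, read 7.27, 7.94, 5.45 and 6.34 on the knockout arrays. It read 6.56, 6.41, 6.97, 5.69 and 6.07 on the wildtype arrays. High and low arrays were those of the enzymes, with an r of 0.93 (Spearman's rho 0.98, r 0.87 without the pair of arrays farthest from the median), and the groups overlapped. Its difference was 0.41 ± 0.44 (SE), with an adjusted p of 0.647 in limma, and it ran from 0.015 without knockout array 2 to 0.84 without knockout array 3.

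Insig2, which is known to respond to other signals than SREBP-2, read 9.23, 9.13, 9.78 and 9.16 on the knockout arrays and 9.43, 9.54, 9.63, 9.14 and 9.51 on the wildtype arrays. Its r with the enzymes was -0.09 over 9 arrays but 0.48 without the pair of arrays farthest from the median, and it was highest on knockout array 3, where Insig1 was lowest. Its difference was -0.12 ± 0.16 (SE), with an adjusted p of 0.718 in limma. The other probe sets of Insig2 differed by -0.29 and 0.23, so its direction was not settled. On the former, knockout array 3 read 8.37, below every wildtype array, and on the latter it read 8.48, the highest of all arrays. Srebf2 itself read 8.49, 8.35, 7.47 and 7.77 on the knockout arrays and 8.16, 8.30, 8.24, 7.96 and 8.15 on the wildtype arrays. On this probe set Srebf2 was high on knockout arrays 1 and 2 and low on 3 and 4, as the enzymes were. The wildtype arrays lay between these pairs. Its r with the enzymes was 0.69 (rho 0.85, r 0.50 without the pair of arrays farthest from the median). Its difference of -0.14 had an adjusted p of 0.743 in limma. The other probe set of Srebf2 differed by -0.053, but its r with the one used was 0.14. There knockout array 3 was the highest of all arrays, at 7.34, and knockout array 2 fell within the wildtype range, at 6.97. Knockout array 1 still stood above the wildtype arrays, at 7.21, and knockout array 4 below them. Whether Srebf2 followed the enzymes was thus not settled.

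Scap, the escort of SREBP-2, was lower on every knockout array. It read 7.60, 7.55, 7.61 and 7.45 on those arrays and 7.83, 7.76, 7.72, 7.996 and 8.33 on the wildtype arrays. The gap between the groups was 0.10, the difference -0.37 ± 0.14 (SE), and the adjusted p 0.208 in limma. Without wildtype array 5, the highest, the difference was -0.27.

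**Figure D4:**
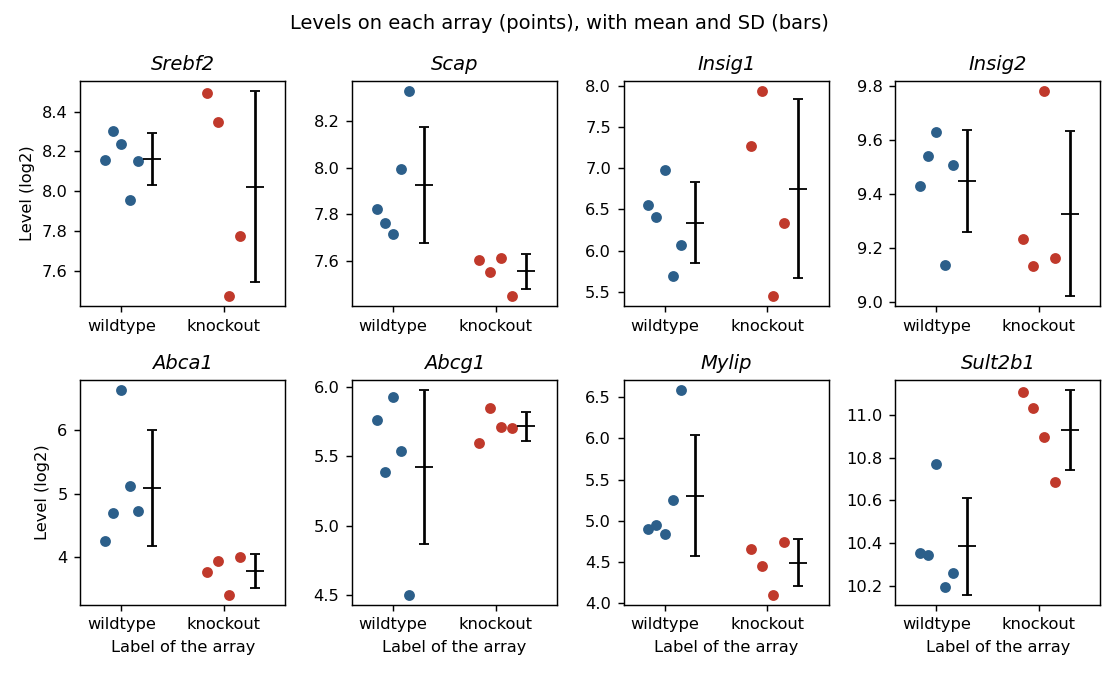
Levels (y axis, log2, a scale of its own for each gene) of 8 genes on the 5 wildtype and 4 knockout arrays; points are arrays and bars are the mean with the SD. Insig1 spreads widely in knockout, Scap, Abca1 and Mylip do not overlap between groups, and Sult2b1 overlaps only through wildtype array 3, at 10.77.

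Other genes of the SREBP machinery, from a list chosen with earlier results of these data known, had mostly negative differences. Of 12 measured of 14, 0 passed the adjusted threshold in limma and 5 had an unadjusted p under 0.05, beside 17.8% of all genes, with 11 negative differences and a median of -0.32. The mean of the 12 was 6.11 to 6.69 on the knockout arrays, 6.69 to 6.75 on wildtype arrays 1 to 4 and 7.24 on wildtype array 5, which stood apart. The lowest was Paqr3, which anchors the Scap complex at the Golgi, at 4.71 against 5.80, and the highest Nfyc, a subunit of NF-Y, at 7.75 against 7.61. The proteases that release SREBP, Mbtps1 and Mbtps2, read 6.19 against 6.88 and 5.94 against 6.72, with adjusted p values of 0.140 and 0.224 in limma. Among 16 measured of 18 other genes of sterol handling, 0 passed in limma and 2 had an unadjusted p under 0.05. Lbr, a nuclear envelope sterol reductase, was the lowest, at 7.14 against 7.91, and Cyp7b1, an oxysterol hydroxylase, the highest, at 2.56 against 2.34. Of 13 measured of 14 enzymes that use isoprenoids, 0 passed and 1 had an unadjusted p under 0.05. This was Coq2, of coenzyme Q synthesis, the lowest, at 6.58 against 7.14, and Pdss2 was the highest, at 3.85 against 3.68.

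In the transport and efflux genes, Abca1 had the largest difference of all 28 members. This pump, which loads cholesterol onto apolipoproteins, read 3.77, 3.95, 3.42 and 4.01 on the knockout arrays and 4.26, 4.69, 6.62, 5.11 and 4.73 on the wildtype arrays. The groups did not overlap, with the closest values 0.26 apart. The difference was -1.30 ± 0.39 (SE), with an adjusted p of 0.142 in limma, and it was -0.91 without wildtype array 3. Its 2 other probe sets were dim and did not show it, at 2.72 against 2.69 and 2.32 against 2.24, and with the mean of its probe sets the difference was -0.39.

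Adipocyte markers moved with Abca1. The mean of the 5 measured markers of 7 was 8.29, 6.71, 6.11, 5.61 and 3.99 on wildtype arrays 3, 4, 5, 2 and 1, the same order as Abca1 on these arrays, and 3.93 to 4.91 on the knockout arrays. All 5 markers read lower in knockout and 0 passed in limma. The defining marker Adipoq read 9.46 on wildtype array 3, 2.83 on wildtype array 1 and 2.42 to 4.27 on the knockout arrays. On wildtype array 1, where the marker mean was within the knockout range, Abca1 read 4.26, above the highest knockout array by 0.26. Macrophage and Langerhans cell markers, whose cells also use Abca1, ran from 5.19 to 5.56 in knockout and 4.61 to 6.06 in wildtype. The part of either cell type in the Abca1 difference was not tested.

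**Figure D5:**
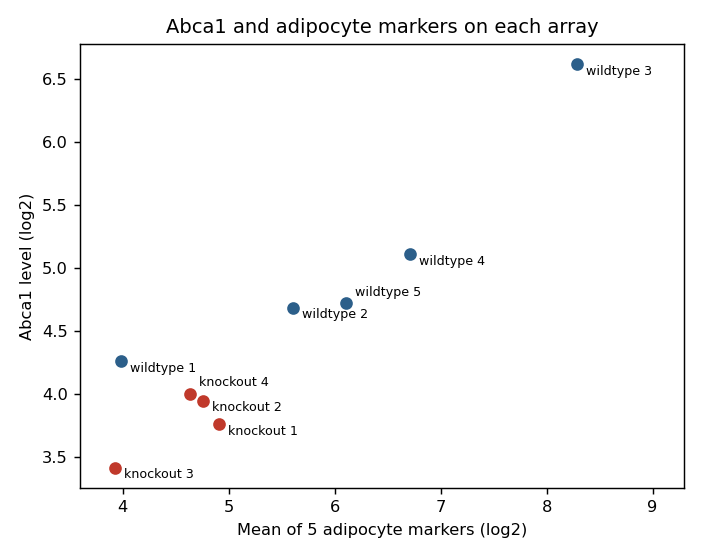
Abca1 level (y axis, log2) against the mean of 5 adipocyte markers (x axis, log2) on each array, blue for wildtype and red for knockout. Wildtype array 3 is highest in both, and the knockout arrays and wildtype array 1 lie at the low end of the markers.

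Mylip was also lower on every knockout array, at 4.66, 4.46, 4.11 and 4.74 against 4.90, 4.95, 4.85, 5.25 and 6.59. The groups lay 0.10 apart and wildtype array 5 stood far above the rest. The difference was -0.81 ± 0.33 (SE), with an adjusted p of 0.237 in limma, and -0.49 without that array. Melanocyte markers, fibroblast markers and macrophage and Langerhans cell markers were lowest on the same array, at means of 3.39, 5.61 and 4.61. Their part in the Mylip value was not tested.

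Among the members, Abcg1 and Nr1h3 had positive differences, unlike Abca1 and Mylip. Abcg1, the pump that loads cholesterol onto lipoprotein particles, read 5.60, 5.85, 5.71 and 5.70 on the knockout arrays and 5.76, 5.39, 5.93, 5.54 and 4.50 on the wildtype arrays. The knockout arrays fell within the wildtype range and the difference was 0.29 ± 0.25 (SE), with an adjusted p of 0.552 in limma, or 0.06 without wildtype array 5. Nr1h3, the gene of LXR alpha, read 2.97 to 3.27 in knockout and 2.73 to 3.02 in wildtype, a difference of 0.30 with an adjusted p of 0.207. Its signal was dim, detection calls were not used here, and whether it lay above background is not known. Stard4, a carrier of cholesterol between membranes and a known target of SREBP-2, differed by -0.06 and followed the enzymes with an r of 0.77. The other probe sets of Stard4 had the opposite sign, at 7.87 against 7.18 and 7.83 against 7.78, so its direction was not settled. Of 8 measured of 10 other LXR partners and targets, 7 had a negative and 1 a positive difference, with a median of -0.20, and 0 passed in limma or had an unadjusted p under 0.05. The lowest was Rxrb, a partner receptor, at 7.30 against 7.61, and the highest Abcg4 at 4.45 against 4.23.

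Sult2b1, the cholesterol sulfotransferase, came closest to the threshold. It read 11.11, 11.04, 10.90 and 10.69 on the knockout arrays. It read 10.35, 10.34, 10.77, 10.19 and 10.26 on the wildtype arrays. All knockout arrays stood above 4 of the 5 wildtype arrays, and wildtype array 3 lay above knockout array 4. The means were 10.93 ± 0.19 (SD, n = 4) and 10.38 ± 0.23 (SD, n = 5), a 1.46-fold difference of 0.55 ± 0.14 (SE), with an adjusted p of 0.0999 in limma. The difference lay between 0.49 and 0.68 in the 18 alternatives, with adjusted p values from 0.00545 with array weights to 0.556 with the Xist covariate, and array weights alone brought it past 0.05. Array by array, Sult2b1 went with the enzymes too, with an r of 0.71 (rho 0.68), which was 0.39 without the pair of arrays farthest from the median. Its single probe set gives no other reading of the gene.

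The list of sulfate donor and sulfatase genes also holds sulfatase activators and phosphatases that act after sulfation. Of 9 measured of 10, 0 passed in limma and 2 had an unadjusted p under 0.05, with 6 negative differences and a median of -0.12. The lowest was Papss1, which makes the sulfate donor that Sult2b1 uses, at 7.19 against 7.83, and the highest Slc26a2, a sulfate transporter, at 8.92 against 8.75. Keratinocyte markers of several layers had list means from 10.99 to 11.40 on knockout arrays and from 11.06 to 11.43 on wildtype arrays. Of the 9 measured, 5 had a positive and 4 a negative difference and 0 passed in limma. Trp63, a regulator of basal keratinocytes, had the largest, at 6.12 against 7.54 with no overlap and an adjusted p of 0.0809 in limma. Ivl, an envelope precursor of the upper layers, read 12.23 against 11.72, with an adjusted p of 0.135 in limma. The basal markers Krt5 and Krt14 differed by -0.34 and 0.01. The other markers, Krt1, Krt10, Lor, Dsc1 and Sfn, differed by 0.03, -0.07, 0.03, -0.21 and 0.51, so the list did not move by layer as a whole. The part of keratinocyte layers in the Sult2b1 value was not tested.

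The marker lists of the cell types were also set against the enzymes across arrays. The sebocyte mean, over 4 measured genes of 6, ran from 4.37 to 4.77 in knockout and 5.00 to 5.88 in wildtype. It was lower on every knockout array than on any wildtype array. Far2, a fatty acyl reductase, passed the test at -1.81 with an adjusted p of 0.0200 in limma. Mgst1 differed by -1.67, with an adjusted p of 0.102 in limma. Elovl3 differed by 0.04 and Mc5r, which was dim, by -0.03, so the whole list did not move. The correlation of the sebocyte mean with the enzyme mean over 9 arrays was -0.07, and its part in the members' values was not tested. For adipocyte markers it was 0.02, for fibroblast markers 0.12, for macrophage and Langerhans cell markers -0.13, for melanocyte markers -0.14, for hair follicle markers -0.39, for smooth muscle markers -0.26 and for keratinocyte markers 0.27. Immediate early genes, all 7 called higher in knockout, had means of 9.64 to 9.88 on the knockout arrays and 6.98 to 7.71 on the wildtype arrays, and their correlation with the enzyme mean was 0.33.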

How the data were processed

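Gene expression was measured on 9 arrays, 4 labelled knockout and 5 labelled wildtype, grouped and numbered by their titles. The authors deposited 1 table of log2 values with 45037 probe sets. The submitters' processing notes name affy. How background was corrected and arrays normalized is not given in the sources used. That values are log2 was judged from their range, and array medians ran from 3.14 to 3.31. The precision is limited by the number of arrays, and p-values measure the spread between these samples.

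GEO's platform annotation named the probe sets, with symbols updated through the GRCm38.p6 RefSeq gene table. The 34945 that name 1 gene gave 18193 genes, each by its brightest probe set. Of the members, 10 had 1 probe set and 18 several, and of 33 other probe sets 15 had the sign of the one used. The test of each gene was limma's (version 3.58.1, R 4.3.3), with lmFit and eBayes, genotype alone and no filter, and Benjamini-Hochberg adjustment over all genes, threshold 0.05. The code was tested on simulated data. Members, lists and motifs were chosen with earlier results of these data known, so no list was tested. All members are named, and array values are given for the 8 largest differences, groups that did not overlap and 6 genes set by role (Srebf2, Insig1, Insig2, Abca1, Abcg1, Sult2b1). Of other lists the highest and lowest gene are named. Mbtps1, Mbtps2, Ivl, Trp63, Far2, Mgst1, Elovl3 and Mc5r were added after their values were seen, as were the differences of the other keratinocyte markers.

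Alternatives were other probe set summaries, a level filter, quantile normalization, median centring, other eBayes settings, array weights, Xist as covariate, the replicate block and each array left out.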

Additional observations from a re-analysis of the deposited data

Results flagged for a closer look

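Across 56 groups of values, 28 genes in knockout and in wildtype, 5 held an array far from the others, where chance gives about 1 in 20 groups. Insig2 read 9.78 on knockout array 3 against 9.13 to 9.23 on the other knockout arrays. Tm7sf2 read 7.27 on knockout array 4 against 7.50 to 7.54. Mylip read 6.59 on wildtype array 5 against 4.85 to 5.25, and Nr1h3 read 3.02 on wildtype array 4 against 2.73 to 2.79. Sult2b1 read 10.77 on wildtype array 3 against 10.19 to 10.35, the array on which the enzyme mean of wildtype was also highest.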

How the results depend on the processing

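The direction of 16 of 28 members was the same in all alternatives, among them Sult2b1, Abca1, Scap, Mylip and Cyp51, and 12 changed sign, none of which had a difference above 0.21 in size. No alternative but array weights, with 4, brought a member past an adjusted p of 0.05 in limma, and 1 passed at 0.1. Positive differences numbered 15 to 23 of 28 with each array left out. All-gene calls numbered 226 (93 higher, 133 lower), 119 (43 and 76) with the replicate block, 9 (8 and 1) with the Xist covariate, 1644 (712 and 932) with array weights, and 62 to 281 (29 to 127 and 33 to 181) with each array left out. With quantile normalization 148 were higher. Same-numbered arrays of the groups correlated between -0.21 and 0.18 in their deviations. Arrays of different numbers were not compared in this way, so these values cannot decide whether the numbers pair the arrays. The block changed no member's call. Of the other pathway lists 1 gene passed with array weights and 1 with the mean of probe sets. The cause of these changes was not tested.

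Sign changes, as differences: with the mean of probe sets Ggps1 -0.031, Hmgcs1 -0.17, Hsd17b7 0.045, Mvk -0.12, Sc5d -0.27 and Stard4 0.23; with array weights Fdps 0.084, Hsd17b7 0.27, Srebf2 0.11 and Stard4 0.10; with the Xist covariate Fdps 0.46, Hsd17b7 0.31, Insig2 0.13, Srebf2 0.025 and Stard4 0.080. With quantile normalization Hsd17b7 gave 0.0363 and Stard4 0.0363. Without the less specific probe sets Ggps1 gave -0.17, and with the replicate block Ggps1 -0.015 and Nsdhl -0.0067. With each array left out Fdps ran from -0.35 to 0.090, Ggps1 from -0.057 to 0.21, Hmgcs1 from -0.041 to 0.50, Hsd17b7 from -0.19 to 0.13, Msmo1 from -0.041 to 0.53, Mvd from -0.017 to 0.25, Nsdhl from -0.099 to 0.28, Sc5d from -0.035 to 0.31, Srebf2 from -0.30 to 0.044 and Stard4 from -0.17 to 0.083.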
